A study of Mus musculus with 8 samples.

Results

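Surface and secreted markers of oligodendrocyte precursor cells were measured on 8 arrays of cultured mouse cells, 4 from cells held at 31.5 °C and 4 at 37 °C. The list names 10 genes: Pdgfra, Cspg4, Lhfpl3, Cacng4, Susd5, Neu4, Pcdh15, C1ql1, Xylt1 and Rlbp1. Every probe set annotated to 1 of these symbols was taken, which gave 16 probe sets for 8 genes out of 45037 probe sets that are not array controls. Neu4 and Xylt1 were not analysed here. Of the 16 probe sets, 12 from 7 genes were bright enough to be tested, among 22519 probe sets tested in all.

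The cells of both groups were labelled oligodendrocyte precursor cells of the ICR strain, with no altered gene named, and came from mixed primary cultures of the cerebral hemispheres of embryos of 15 days. They grew for 5 days in medium with 10% FBS, then moved to a basal medium free of serum for a further 48 hr, at 31.5 °C in one group and at 37 °C in the other. Total RNA was read on 1 array per sample, 4 samples per group numbered 1 to 4. The extraction text gives 3 mice for each group, and nothing states whether the 4 numbers stand for separate cultures, so the errors and p-values measure the spread between these samples, which may be technical.

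Precursor cells are the dividing stage that precedes myelin-forming oligodendrocytes. Platelet-derived growth factor, released by astrocytes and neurons, binds the receptor encoded by Pdgfra and keeps the cells dividing and undifferentiated. The NG2 proteoglycan, encoded by Cspg4, covers the same cells, and both markers are lost as the cells differentiate. The other members are known mostly as transcripts enriched in precursors: small membrane proteins, an adhesion molecule, secreted or matrix-modifying proteins and a retinoid carrier.

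Pdgfra and Lhfpl3 rose at 31.5 °C, and the other 5 genes tested did not pass the threshold, an adjusted p of 0.05. Both tested Lhfpl3 probe sets passed, as did the 2 brighter of the 3 Pdgfra probe sets, with changes of 1.37-fold to 1.74-fold. In total 4 of 12 member probe sets were higher and 0 lower (limma, Benjamini-Hochberg adjustment over all probe sets tested). Without adjustment 5 passed the same threshold as higher and 0 as lower, where 14.3% of all probe sets tested were higher and 14.9% lower. Of all probe sets tested, 13.2% passed, 6.46% higher and 6.76% lower, so that 48.9% of the calls were higher, against 61.4% with arrays scaled to a common median. The 4 member calls come from 2 genes only, so they are not 4 independent observations. The median log2 change was 0.18 over the 12 member probe sets, and -0.0046 over all probe sets tested.

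The receptor gene Pdgfra is read by 3 probe sets. The brightest, 1421917_at, gave a scaled signal of 2097, 2257, 2912 and 2611 in replicates 1 to 4 at 31.5 °C, against 1672, 1684, 2034 and 1801 at 37 °C. All 4 arrays at 31.5 °C lay above all 4 at 37 °C, the closest pair of values being 2097 and 2034. The means were 2469 ± 365 at 31.5 °C and 1798 ± 168 at 37 °C (SD, n = 4 each), a log2 change of 0.45 ± 0.12 (SE, limma adjusted p = 0.0444). Probe set 1421916_at read 452, 531, 557 and 491 at 31.5 °C, against 323, 277, 393 and 390 at 37 °C. Again no array overlapped, and the log2 change was 0.56 ± 0.13 (adjusted p = 0.026).

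The third Pdgfra probe set, 1438946_at, is dim and varied more. It read 60.1, 101, 154 and 130 in replicates 1 to 4 at 31.5 °C, against 25.1, 49.1, 73.4 and 85.5 at 37 °C. Here the arrays of the groups overlapped and replicate 1 was the lowest at both temperatures, while within each number the array at 31.5 °C was the higher. The log2 change was 0.99 ± 0.41 and did not pass (adjusted p = 0.146), and with the replicate number as a block it passed at 0.99 ± 0.12 (adjusted p = 0.00435). With the block 5 of the 12 member probe sets passed, all higher, where 26.3% of all probe sets passed, 12.4% higher. The 3 Pdgfra probe sets could not be shown to differ in their changes by exact two-sided permutation of the arrays. The brightest changed by 0.11 less than 1421916_at (exact p = 0.457, adjusted 0.486) and by 0.54 less than 1438946_at (exact p = 0.257, adjusted 0.429). The difference from 1438946_at was -0.93, -0.62, -0.55 and -0.066 in pairs 1 to 4, of 1 sign throughout. An exact test over 4 pairs can give no p under 0.125, so pairing cannot decide it.

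Lhfpl3, whose product is a membrane protein of the LHFPL family related to tetraspans, had log2 changes of 0.67 and 0.80 on its probe sets, next to 0.45 and 0.56 on those of Pdgfra that passed; the difference between the genes was not tested. Probe set 1433990_at read 1032, 1121, 1634 and 1400 at 31.5 °C, against 632, 747, 942 and 929 at 37 °C, without overlap. Its means were 1297 ± 274 at 31.5 °C and 813 ± 150 at 37 °C (SD, n = 4 each), a log2 change of 0.67 ± 0.18 (adjusted p = 0.0424). Replicates 3 and 4 were the brighter ones at both temperatures. The second probe set, 1429592_at, read 361, 434, 327 and 515 at 31.5 °C, against 201, 235, 193 and 313 at 37 °C. Here too the groups did not overlap, and the log2 change was 0.80 ± 0.19 (adjusted p = 0.0267). The changes of both probe sets differed by 0.13 (exact p = 0.486, adjusted 0.486).

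Within each replicate number the 4 passing probe sets were all higher at 31.5 °C, with log2 changes between 0.33 and 0.94. For 1421917_at of Pdgfra the changes in pairs 1 to 4 were 0.33, 0.42, 0.52 and 0.54. For 1433990_at of Lhfpl3 they were 0.71, 0.58, 0.79 and 0.59. The 4 probe sets without overlap between temperatures were these same 4, and 0 member probe sets were lower without overlap. Of all probe sets tested 10.8% lay higher and 10.2% lower in this way. In the fit without the block the calls are near the threshold. Of the 4, 0 passed when probe sets of low signal were kept in the test. Likewise 0 passed when the array left out was number 2 at 31.5 °C or number 1 or 2 at 37 °C. When it was number 3 or number 4 at 31.5 °C, 1 passed. Without replicate 4 at 37 °C, the array of lowest deposited signal, 2 passed, and with quantile normalisation 2 passed, while the sign of each of the 4 was positive in every alternative that measured it (22 or 24 of them). With the replicate number as a block all 4 passed (limma adjusted p = 0.00933 and 0.0168 for Pdgfra, 0.00369 and 0.00242 for Lhfpl3). There 12.4% of all probe sets were higher. When a pair was also left out, 1421916_at of Pdgfra did not pass without pair 1 or pair 3, and the others passed.

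**Figure D1:**
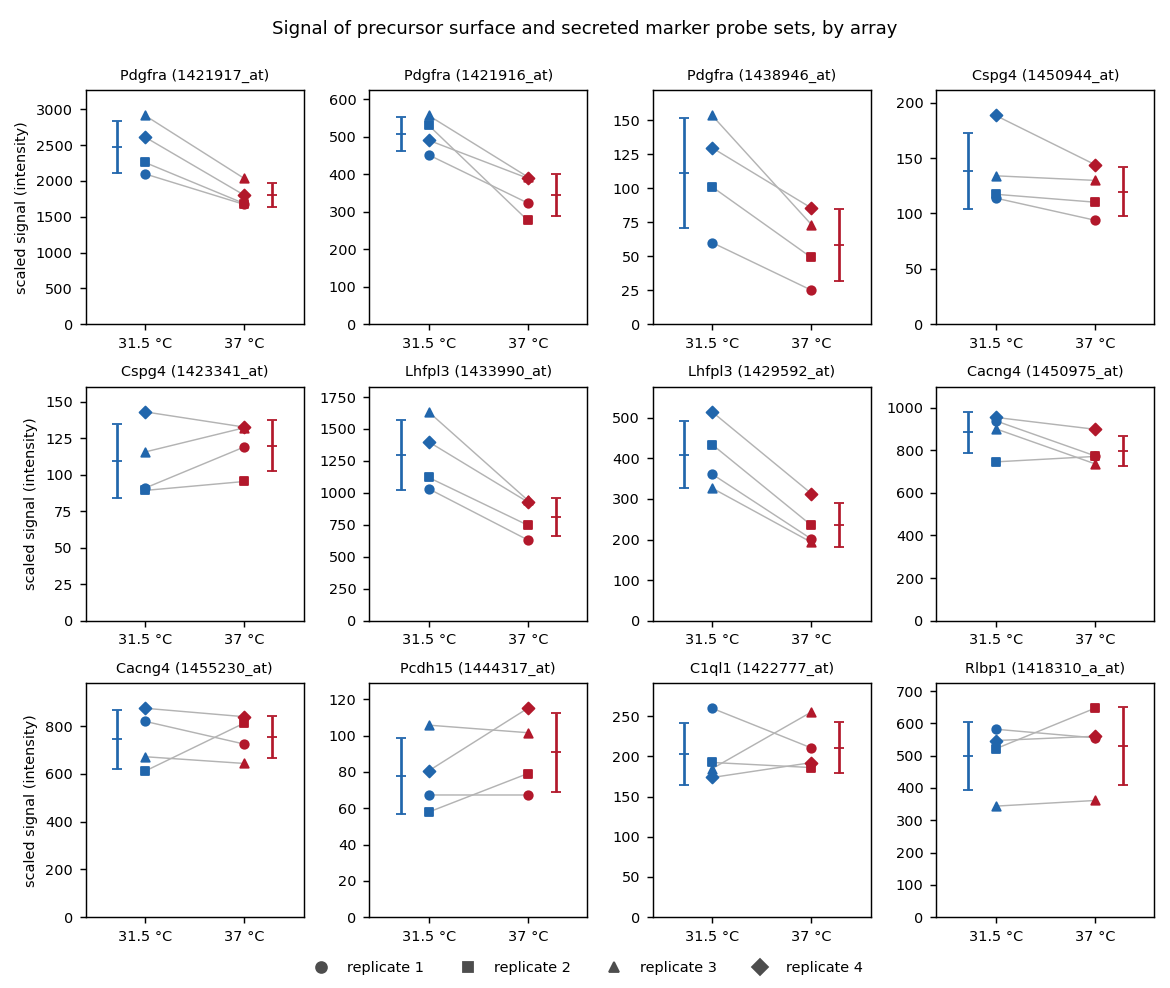
Scaled signal of the 12 tested member probe sets on each array, with 31.5 °C on the left and 37 °C on the right of each panel and a vertical axis that starts at 0. Grey lines join arrays of the same replicate number, and the bars beside the points give the mean and SD of 4 arrays. The points of Pdgfra (1421917_at and 1421916_at) and of both Lhfpl3 probe sets are separated between temperatures, while those of Cspg4, Cacng4, Pcdh15, C1ql1 and Rlbp1 overlap.

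The array probes read transcripts and not promoters, and the 2 promoters are given because Pdgfra and Lhfpl3 rose together. The 250 bases before the start of each gene, from RefSeq on build GRCm38.p6, are written 5′ to 3′ on the plus strand, at chr5:75152001-75152250 for Pdgfra and chr5:22745804-22746053 for Lhfpl3. Capitals mark matches on either strand to 5 motifs: the GC box GGGCGG, the CCAAT box CCAAT, the TATA box TATAAA, the E-box CAGCTG and the SOX-type motif AACAAT.
Pdgfra: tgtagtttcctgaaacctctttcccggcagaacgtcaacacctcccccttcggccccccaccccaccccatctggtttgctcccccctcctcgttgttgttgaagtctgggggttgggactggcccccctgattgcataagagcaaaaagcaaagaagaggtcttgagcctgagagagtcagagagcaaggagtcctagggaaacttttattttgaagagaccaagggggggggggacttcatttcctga
Lhfpl3: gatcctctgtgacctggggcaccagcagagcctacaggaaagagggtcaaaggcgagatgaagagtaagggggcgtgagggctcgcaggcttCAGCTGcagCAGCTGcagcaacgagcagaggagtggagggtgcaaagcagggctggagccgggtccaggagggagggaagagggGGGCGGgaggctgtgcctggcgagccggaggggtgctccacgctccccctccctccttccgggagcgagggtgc
The Lhfpl3 window held 2 E-boxes CAGCTG, which do not overlap and start 158 and 149 bases before the gene, and 1 GC box. An E-box of these letters occurs in 13% of 32851 RefSeq promoter windows of the same length, and the GC box in 32.7%. The Pdgfra window held 0 matches to the 5 motifs, of which CCAAT occurs in 33.8% of windows, TATAAA in 12.4% and AACAAT in 9.42%. Of the bases, 54.4% were G or C before Pdgfra and 67.2% before Lhfpl3, against a median of 52.4% over all windows. These are letter matches only.

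Cspg4, the gene of the NG2 proteoglycan core protein, did not pass on either probe set, and its probe sets pointed in opposite directions. Probe set 1450944_at read 114, 117, 134 and 188 at 31.5 °C, against 93.9, 110, 130 and 144 at 37 °C. The groups overlapped broadly although the array at 31.5 °C was higher within each of the 4 numbers, and the log2 change was 0.20 with a 95% interval from -0.23 to 0.63 (adjusted p = 0.534). Probe set 1423341_at read 90.9, 89.3, 116 and 143 at 31.5 °C, against 119, 95.4, 132 and 133 at 37 °C. It was higher at 31.5 °C in 1 of 4 pairs, with a log2 change of -0.14 (interval -0.54 to 0.25, adjusted p = 0.641). The changes of both probe sets differed by 0.34 on average, with 0.67, 0.19, 0.24 and 0.28 in pairs 1 to 4, at the smallest p that 4 against 4 arrays can give (exact two-sided permutation p = 0.0286, adjusted 0.143 over 5 comparisons of probe sets of 1 gene).

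Pdgfra and Cspg4, the markers most used for these cells, were compared directly. Pdgfra changed by 0.25 more than Cspg4 on the log2 scale, each by its brightest probe set, and this difference did not pass (exact two-sided permutation p = 0.229). In pairs 1 to 4 it was 0.050, 0.33, 0.47 and 0.15, positive in 4 of 4 pairs (exact sign-flip p = 0.125, the smallest that 4 pairs can give). With the block, the log2 change of Cspg4 was 0.20 ± 0.085 (SE, limma adjusted p = 0.131) and that of Pdgfra 0.45 ± 0.072 (adjusted p = 0.00933).

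Among the remaining membrane proteins, Cacng4 encodes a transmembrane regulator of AMPA-type glutamate receptors. Its probe set 1450975_at read 938, 745, 900.5 and 954 at 31.5 °C, against 773, 771, 736 and 898 at 37 °C, so that 3 of 4 pairs were higher but the groups overlapped. The log2 change was 0.15 (interval -0.096 to 0.40, adjusted p = 0.403). Probe set 1455230_at had -0.028 (interval -0.35 to 0.29, adjusted p = 0.923), a sign that turns with median scaling or when single arrays are left out. The changes of both differed by 0.18 (exact p = 0.0857, adjusted 0.214).

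Pcdh15 encodes a protocadherin, best known from the tip links of inner ear hair cells. Only 1 of its 3 probe sets was tested: 1444317_at read 67.3, 57.9, 106 and 80.6 at 31.5 °C, against 67.3, 79.1, 102 and 115 at 37 °C. The groups overlapped, and the array at 31.5 °C was higher in 2 of 4 pairs. The log2 change was -0.23 (interval -0.73 to 0.27, adjusted p = 0.547). The other 2 stayed under the mean signal of 36.3 needed for testing. The means were 23.1 ± 5.84 at 31.5 °C and 28.2 ± 11.9 at 37 °C for 1421503_at (SD, n = 4 each), and 1442326_at was at the lowest value used, 9.80, on 2 arrays of each group. Susd5, which encodes a membrane protein with a sushi domain, was also under that limit. Its means were 29.5 ± 18.3 at 31.5 °C and 21.8 ± 10.4 at 37 °C for 1438636_s_at. They were 12.8 ± 2.28 at 31.5 °C and 10.8 ± 1.95 at 37 °C for 1437387_at, and 1437387_at was at the lowest value used on 1 array at 31.5 °C and 3 arrays at 37 °C. Fitted with all probe sets kept, their log2 changes were 0.34 ± 0.60 and 0.24 ± 0.17 (SE, limma adjusted p = 0.872 and 0.582), and those of the dim Pcdh15 probe sets -0.23 ± 0.37 for 1421503_at and 0.10 ± 0.18 for 1442326_at (adjusted p = 0.849 and 0.859).

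C1ql1, a secreted protein of the C1q family that binds an adhesion receptor at synapses, read 260, 192, 185 and 174 at 31.5 °C, against 210, 186, 255 and 192 at 37 °C on its probe set 1422777_at. Replicates 1 and 3 moved in opposite directions and the log2 change was -0.065 (interval -0.41 to 0.28, adjusted p = 0.82). Rlbp1, which encodes the retinaldehyde-binding protein CRALBP of the visual cycle, read 582, 521, 344 and 547 at 31.5 °C, against 555, 647, 361 and 560 at 37 °C on 1418310_a_at. Replicate 3 was the lowest at both temperatures, and the log2 change was -0.087 (interval -0.58 to 0.40, adjusted p = 0.832). With arrays scaled to a common median both of these small values turn positive.

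**Figure D2:**
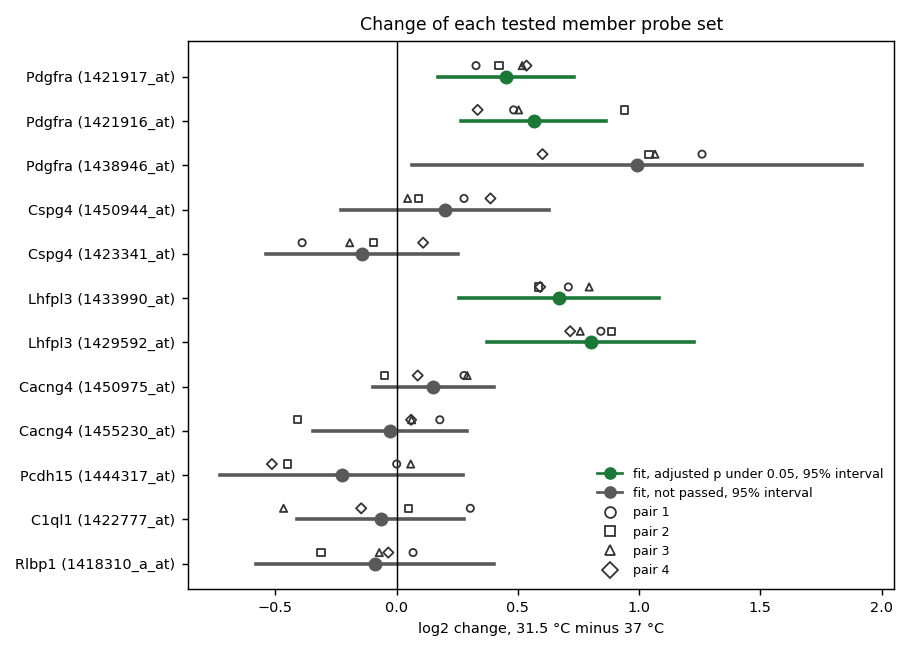
Log2 change (31.5 °C minus 37 °C) of each tested member probe set, with the fitted value and its 95% interval as a filled point and line, and the 4 within-number changes as open symbols just above. The open symbols lie above 0 in 4 of 4 pairs for all 3 Pdgfra and both Lhfpl3 probe sets and for Cspg4 (1450944_at), and on both sides of 0 for the other 6.

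The genes nearest in pattern were found by the root mean square difference of log2 values over the 8 arrays after centring each gene. Nearest to Pdgfra were Gatad2a at 0.0594, Atr at 0.0649 and Hnrnpul1 at 0.0736. Nearest to Lhfpl3 were Emp1 at 0.0709, Shc4 at 0.0911 and Agpat2 at 0.145. Among 11524 genes Pdgfra itself was the 6th nearest to Lhfpl3, and Lhfpl3 was the 288th nearest to Pdgfra, both at a distance of 0.167. Cspg4 stood at rank 2335 from Pdgfra and Rlbp1 at rank 10129. All 8 arrays enter each distance, so shared differences between replicate numbers count in it as well as temperature. Pdgfra and Lhfpl3 are the members that rose, so their nearness to each other, against members that did not pass, is partly built in.

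The ligands and relatives of the receptor were examined next, each gene by its brightest probe set. Of 6 tested PDGF ligand and receptor genes, Pdgfra rose and 5 did not pass, and the list median was 0.0083. Among genes represented in this way 6.68% of 11525 were higher and 6.83% lower (13.5% in all), 15% and 14.9% at an unadjusted p under 0.05, and 12.9% and 13.9% by adjusted p with the block. Pdgfa, the ligand that stimulates precursors, averaged 480.4 ± 28.3 at 31.5 °C and 481 ± 80.3 at 37 °C (adjusted p = 0.966; the sign of its log2 change, 0.012, turns under several alternatives). Pdgfc averaged 266 ± 27.4 at 31.5 °C and 301 ± 54.3 at 37 °C (adjusted p = 0.483), and Pdgfrb, the receptor of pericytes, 204 ± 117 at 31.5 °C and 217 ± 55.4 at 37 °C (adjusted p = 0.737).

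Genes that act downstream of the receptor moved both ways. Of 28 tested, 4 rose, 3 fell and 21 did not pass, with a median of 0.021 (6 higher and 3 lower when unadjusted). Spry1, a feedback inhibitor of receptor tyrosine kinases, rose to 308 ± 33.3 at 31.5 °C, against 211 ± 18.9 at 37 °C (0.54 ± 0.11, adjusted p = 0.0143). The ETS factor genes Etv4 and Etv5, which follow ERK signalling, rose by 0.78 ± 0.20 (adjusted p = 0.0376, up to 0.114 over the alternatives) and by 0.36 ± 0.10 (adjusted p = 0.0433, up to 0.118), and the kinase gene Akt1 by 0.35 ± 0.09 (adjusted p = 0.0304, up to 0.235). Dusp6, Spry2 and Spry4 were among the 21 that did not pass, with -0.028, -0.018 and 0.14 (adjusted p = 0.921, 0.939 and 0.640). The genes Sos1, Grb2 and Nck1 fell by 0.59, 0.48 and 0.39 on their brightest probe sets (adjusted p = 0.0027, 0.011 and 0.0229). These falls depend on the probe set used. With the mean over a gene's probe sets Sos1 turned to 0.17, and the falls shrank to -0.12 for Grb2 and -0.069 for Nck1. None of these values passed.

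Partners and paralogs of the other members were read in the same way. Of 11 tested partners and sheddases of NG2, 0 passed (limma; 1 higher and 5 lower at unadjusted p under 0.05, and 1 and 3 with the block). The sheddase gene Adam17 had 406 ± 20.2 at 31.5 °C and 514 ± 56.2 at 37 °C without overlap (adjusted p = 0.0608, and 0.0212 with the block). Mmp14, a membrane protease, had 747 ± 126 at 31.5 °C and 542 ± 108 at 37 °C, also without overlap (adjusted p = 0.102, and 0.0213 with the block). Of 11 tested TARP and AMPA receptor genes, among them Cacng4, 0 rose, 2 fell and 9 did not pass (0 higher and 4 lower when unadjusted, and 0 and 5 with the block), at a median of -0.35. The receptor subunit gene Gria4 fell to 171 ± 19.0 at 31.5 °C, against 305 ± 53.6 at 37 °C (-0.82 ± 0.14, adjusted p = 0.0086), and Gria2 to 804 ± 141 at 31.5 °C, against 1218 ± 158 at 37 °C (-0.61 ± 0.15, adjusted p = 0.0297, up to 0.0825). Gria1 had -0.79 ± 0.23 (adjusted p = 0.0503, and 0.0029 with the block), and Cacng7, a further regulator, 0.14 (adjusted p = 0.524).

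Of 5 tested LHFPL and tip-link genes, Lhfpl3 rose, Lhfpl2 fell and 3 did not pass. Lhfpl2 read 279 ± 16.9 at 31.5 °C and 543 ± 46.3 at 37 °C (-0.96 ± 0.09, adjusted p = 0.000859), opposite in sign to its paralog Lhfpl3. Lhfpl4 had 0.26 ± 0.16 (adjusted p = 0.315), and a log2 change of 0.76 with the mean of its probe sets (adjusted p = 0.00646). Of 13 genes of sialidases, the family of Neu4, and of sialyltransferases, 0 rose and 3 fell (1 higher and 4 lower when unadjusted). All 3 that fell are sialyltransferase genes. St8sia4 and St8sia2, which make the polysialic acid of neural precursors, fell by 0.58 (adjusted p = 0.00905, up to 0.0929) and 0.37 (adjusted p = 0.0442, up to 0.266), and St6gal2 fell by 0.75 (adjusted p = 0.0418, up to 0.123). Neu1, the only sialidase gene tested, averaged 223 ± 4.72 at 31.5 °C and 247 ± 30.7 at 37 °C (adjusted p = 0.387).

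Of 7 genes of C1q-like proteins and adhesion receptors, Adgrb2 rose by 0.41 ± 0.10 (adjusted p = 0.0246, up to 0.0688) and 6 did not pass. Without adjustment 3 of the 7 were higher and 0 lower. Among the 6 that did not pass, the receptor genes Adgrb3 and Adgrb1 had -0.0081 (adjusted p = 0.971) and 0.35 (adjusted p = 0.111). C1ql3, a paralog of C1ql1, had 0.46 (adjusted p = 0.110). Of 16 enzymes that build proteoglycan chains, the pathway that Xylt1 starts, Chpf2 rose to 476 ± 39.7 at 31.5 °C, against 253 ± 15.4 at 37 °C (0.91 ± 0.09, adjusted p = 0.00104, but 0.22 with the mean of its probe sets, adjusted p = 0.359). The other 15 did not pass, Xylt2 with 0.20 (adjusted p = 0.562) among them, and with the block 2 rose and 2 fell. Of 5 retinoid genes, Rdh10, which oxidises retinol, rose by 0.41 (adjusted p = 0.0422, up to 0.114), while Rdh5 and Dhrs3 fell by 0.79 (adjusted p = 0.0223, up to 0.0845) and 1.09 (adjusted p = 0.0288, up to 0.0976). Rdh11 had -0.089 (adjusted p = 0.543). Of the sushi domain genes 2 were tested and 0 passed, also at an unadjusted p under 0.05, Susd6 with 0.10 (adjusted p = 0.509).

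**Figure D3:**
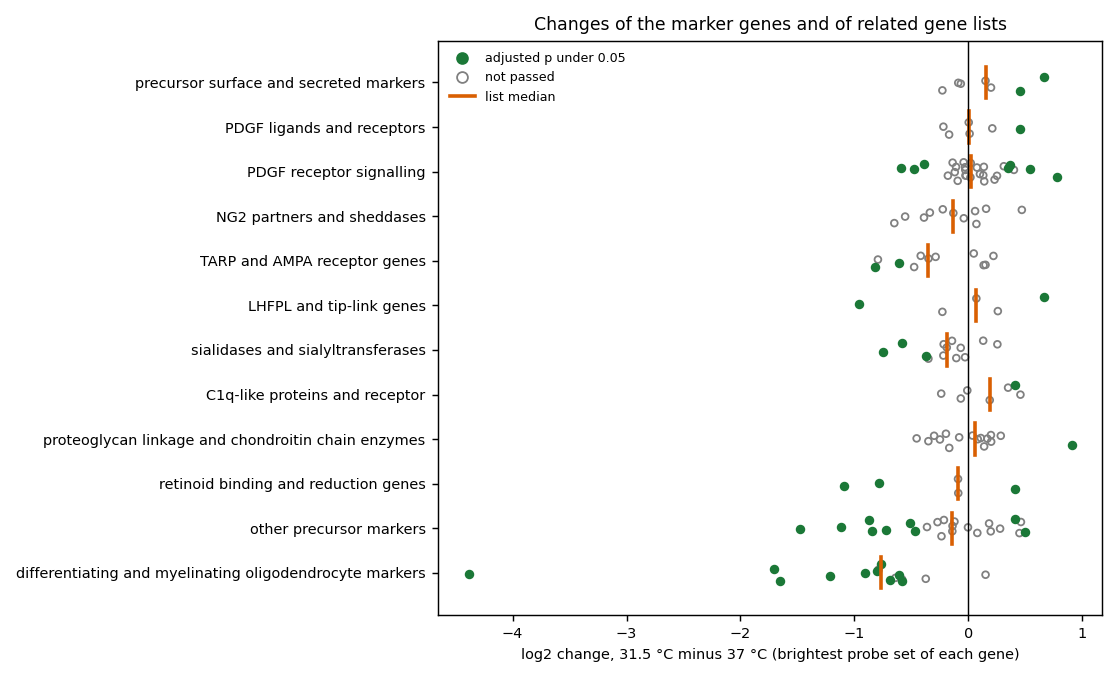
Log2 change (31.5 °C minus 37 °C) of every tested gene in the list of surface and secreted markers and in 11 related lists, each gene by its brightest probe set. Filled points passed an adjusted p of 0.05, open points did not, and the vertical bar is the list median, 0.15 for the surface and secreted markers and -0.76 for the oligodendrocyte markers.

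Other precursor genes did not share the direction of Pdgfra and Lhfpl3 as a group. Of 23 tested, 2 rose, 7 fell and 14 did not pass, at a median of -0.14 (4 rose and 7 fell with the block). Their summed signal was 27539 to 28568 at 31.5 °C and 31276 to 35361 at 37 °C, without overlap. Bright genes weigh most in this sum, and the brightest, Olig1, averaged 6727 at 31.5 °C and 6752 at 37 °C. Of the listed genes Gpr17 and Gpnmb lost the most signal at 31.5 °C, so the sum does not show a fall shared by the list. The sum without these genes was not taken. The 2 that rose, named after their values were seen, were Traf4 and Sox5, by 0.50 (adjusted p = 0.019, up to 0.0839) and 0.41 (adjusted p = 0.0301, up to 0.476). The receptor gene Gpr17, of the step between precursor and oligodendrocyte, fell to 1509 ± 91.5 at 31.5 °C, against 2713 ± 308 at 37 °C (adjusted p = 0.00217). The matrix gene Matn4 fell by 0.87 (adjusted p = 0.00728). Gpnmb, which the list holds although microglia and pigment cells also express it, fell by 1.48 (adjusted p = 0.00967). It averaged 1219 ± 539 at 31.5 °C and 3208 ± 494 at 37 °C. Of the defining transcription factors, Olig1 averaged 6727 ± 390 at 31.5 °C and 6752 ± 646 at 37 °C (adjusted p = 0.992). Olig2 averaged 1805 ± 203 at 31.5 °C and 2097 ± 271 at 37 °C (adjusted p = 0.305), and Sox10 923 ± 39.7 at 31.5 °C and 1203 ± 238 at 37 °C (adjusted p = 0.125), so that these 3 did not pass.

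Markers of other cell types in these mixed cultures were set beside the rise of Pdgfra and Lhfpl3. Of 15 tested oligodendrocyte markers 10 fell and 0 rose (0 higher and 13 lower when unadjusted). The summed signal of that list was 17266 to 23631 at 31.5 °C and 31117 to 37829 at 37 °C, without overlap. Mbp, a main myelin protein gene, averaged 5474 ± 895 at 31.5 °C and 9500 ± 1054 at 37 °C (adjusted p = 0.00905). Mobp, a further myelin gene, averaged 12.9 ± 3.85 at 31.5 °C, where 2 arrays were at the lowest value used, and 304 ± 211 at 37 °C, so the size of its fall depends on that value. In whole cultures fewer cells of a type and less RNA per cell cannot be told apart, and the part of this fall in the result was not tested. The temperature labels were checked with Cirbp, a cold-inducible gene, at 1609 ± 201 at 31.5 °C and 424 ± 105 at 37 °C.

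Pericytes also carry NG2, and fibroblasts of the meninges carry Pdgfra. Of 7 tested pericyte and smooth muscle markers 0 passed (limma; 0 higher and 1 lower at unadjusted p under 0.05, and 0 and 2 with the block), and the summed signal was 6151 to 12049 at 31.5 °C and 6871 to 10138 at 37 °C. The pericyte markers Kcnj8 and Abcc9 were at or near the lowest value used, while Rgs5 and Pdgfrb were measured on all arrays. Of 12 fibroblast markers 0 rose, Thy1 fell by 0.55 (adjusted p = 0.0499, up to 0.13) and 11 did not pass (3 fell with the block), with sums of 3088 to 6761 at 31.5 °C and 3214 to 5739 at 37 °C. Of 17 astrocyte markers 0 passed (2 higher and 2 lower when unadjusted, and 3 and 4 with the block), with sums of 19793 to 32266 at 31.5 °C and 21452 to 36806 at 37 °C. Of 16 microglia markers 0 passed (0 and 2 unadjusted, 0 and 5 with the block), with sums of 13238 to 22665 at 31.5 °C and 16267 to 30168 at 37 °C. Of 17 neuron markers Nefm rose by 0.71 (adjusted p = 0.0217, up to 0.0645) and Gap43 fell by 0.63 (adjusted p = 0.0341, up to 0.0995). With the block 1 neuron marker rose and 6 fell, and the list had sums of 15119 to 18854 at 31.5 °C and 15871 to 22390 at 37 °C. The endothelial markers were nearly dark: 2 of 8 were tested, 0 passed (0 unadjusted, 0 and 1 with the block), and Pecam1 was at the lowest value on 3 arrays at 31.5 °C and 4 at 37 °C. Of these 7 sums for other cell types, those of the oligodendrocyte, astrocyte, microglia and neuron markers were lower at 31.5 °C in 4 of 4 pairs, with separate ranges for the oligodendrocyte markers. The fibroblast sum was lower in 3 pairs, the pericyte sum in 2 and the endothelial sum in 1. The part of any of these cells in the results was not tested.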

How the data were processed

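The table holds probe set intensity values deposited by the authors, made with MAS5 per the submitters' processing notes. Version and scaling target are not given in the sources used here, and no genome build applies. Trimmed means of the deposited arrays ran from 132 to 248, so arrays were brought to a shared trimmed mean (2% cut at each end, factors 0.848 to 1.60). Values under the 25th percentile (9.80) were raised to it, log2 was taken, and probe sets with a mean at or above the median (36.3) were tested.

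The 64 controls were left out. Of the other 45037 probe sets 34945 carry 1 symbol, 932 several and 9160 none, and only those with 1 symbol name a gene, in the current RefSeq spelling. A gene with several probe sets stands by the brightest wherever lists are counted. List genes without such a probe set were not analysed here, and 1 was matched by synonym.

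The fit was limma 3.58.1 in R 4.3.3 (temperature as the only term, two-sided), adjusted by Benjamini-Hochberg over all 22519 probe sets tested, and the procedure was tested on simulated data. Counts of list genes use those same adjusted p-values. Arrays of 1 replicate number deviated together from their group means (correlation across probe sets 0.52, 0.38, 0.45 and 0.58, and -0.37 to 0.0092 between different numbers). This was taken as pairing by number. Deviations from a group mean sum to 0, so positive correlations within numbers lower those between numbers, which are no separate evidence. Values fitted with that block stand beside results whose call, or count by over 1.5 times, they alter. Single differences were tested by exact two-sided permutation of the 8 arrays. No 2 arrays shared over 0.708% of values.

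The members, the lists and the tests were chosen with earlier results of these data known. The text names every member, up to 3 genes of smallest p among those that passed in each list, relatives and partners of members, defining markers, Cirbp, and the 3 genes nearest in pattern to Pdgfra and to Lhfpl3. The 24 alternatives are other scalings, floors, filters, probe set rules, variance models, the block, and leaving out arrays or pairs. Plots used matplotlib 3.10.9 (Python 3.11.15).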

Additional observations from a re-analysis of the deposited data

Results flagged for a closer look

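In 6 of 136 groups of 4 arrays checked, 1 array lay far from the other 3 relative to the whole range, a gap that chance gives in about 1 in 20 groups. Among the members, Pcdh15 on its dim probe set 1421503_at read 14.4 in replicate 2 at 31.5 °C, against 25.2 to 26.5 on the other 3 arrays at that temperature. Susd5 on 1437387_at read 13.7 in replicate 2 at 37 °C, where the other 3 arrays were at the lowest value used, 9.80. Both probe sets were too dim to be tested and enter no count. Of the other genes, Mobp read 616 in replicate 2 at 37 °C, against 163 to 236 on the other 3. Hnrnpul1 read 1263 in replicate 3 at 37 °C, against 984 to 1024, and Neu1 read 292 in replicate 4 at 37 °C, against 225 to 236. Sox5 read 222 in replicate 4 at 31.5 °C, against 246 to 248 on the other 3 arrays at 31.5 °C.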

How the results depend on the processing

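The number of probe sets called between temperatures was 2977 as reported, 1630 with scaling by the median (61.4% of calls higher, against 48.9% as reported, and a median change over all probe sets of 0.084, against -0.0046), 1775 of 11525 with 1 probe set per gene, 1285 of 10700 with probe sets averaged per gene (fewer features in both) and 5919 with the replicate block. It ran from 1573 to 2719 when 1 array was left out, and from 3159 to 3596 when a pair was left out with the block.

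The 4 higher member probe sets became 2 with quantile normalisation, 0 without the filter, 2 with 1 probe set per gene and 1 with the mean over probe sets. Counting per gene leaves fewer member values. The count ran from 0 to 4 with 1 array left out, and was 5 with the replicate block and 4 or 5 without a pair. It was 4 under each other alternative, and the block changed no other member call. No member probe set was called lower under any of the 24 alternatives. Leaving out 1 array also leaves its partner unmatched. Over 273 values of tested member probe sets under the alternatives, 225 kept sign and side of the threshold, 30 lost the call, 5 gained it (all 1438946_at of Pdgfra with the block) and 13 changed sign, none of them called.

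The 13 belonged to 3 genes. With median scaling they were 0.061 for Cacng4 (1455230_at), 0.024 for C1ql1 and 0.0016 for Rlbp1. With 1 array left out they ran from -0.11 to 0.062 for that Cacng4 probe set, -0.19 to 0.030 for C1ql1 and -0.26 to 0.082 for Rlbp1. With the block, Cacng4 was 0.100 without pair 2 and C1ql1 was 0.069 without pair 3. Among other genes, Sos1 was 0.17 with the mean over probe sets. Pdgfa was -0.00088 with quantile normalisation, -0.30 with the mean over probe sets, -0.12 without pair 1 and -0.12 to 0.07 with 1 array left out. Olig1 was 0.087 with median scaling, 0.019 with quantile normalisation, 0.017 with array weights, 0.056 without pair 4 and -0.054 to 0.055 with 1 array left out. The difference between the changes of the Lhfpl3 probe sets ran from -0.35 to 0.034 with 1 array left out. Where a value changed sign with the scaling or a left-out array, the cause was not tested.

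The difference between Pdgfra and Cspg4 was 0.16 to 0.38 with 1 array left out, and 0.25 (exact sign-flip p = 0.125, the smallest 4 pairs can give) with the replicate block. Comparisons between probe sets of 1 gene gave 0 calls under each alternative run, but with 5 comparisons a single difference at the smallest exact p, 0.0286, has an adjusted p of 0.143, so this count says nothing about stability. Susd5 and 2 Pcdh15 probe sets were fitted without the filter only, and 4 arrays per group limit the precision.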
